A study of Mus musculus with 9 samples.

Results

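Histone genes encode the proteins that DNA is wrapped around, and 50 of the 39017 genes in the count table were examined here as the histone genes of CD4+ T cells. They were the rows whose mouse symbol starts with Hist1h, Hist2h, Hist3h or Hist4h (newer names H1f, H2ac, H2bc, H3c and H4c) or H3f3, with at least 10 counts summed over 9 samples. The symbol alone matched 72 rows, of which 22 had fewer than 10 counts and 10 of those had 0. The 50 genes comprised 45 genes of the histone gene clusters (36 of Hist1 on chromosome 13, 6 of Hist2 on chromosome 3, 2 of Hist3 on chromosome 11 and the Hist4 gene on chromosome 6), the 4 solitary genes H3f3a, H3f3b, H1f0 and H1fx, and H3f3aos, an antisense RNA of H3f3a. By protein, the clustered genes were 5 of linker histone H1, 13 of H2A, 10 of H2B, 6 of H3 and 11 of H4.

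The count minimum fell between genes with similar totals, with Hist1h2bn and Hist1h2al at 5 counts, H3f3a-ps1 at 6, Hist1h4k at 8 and Hist1h2bp at 9 just below it, and Hist1h4m at 11, Hist2h2ab at 12, Hist1h2bf at 14, Hist1h2ad at 21 and Hist2h3c1 at 29 just above it. A further 8 annotated histone symbols, among them Hist1h3d, Hist1h3f and Hist1h2bm, matched no row and were not analysed here.

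The samples were CD4+ T cells of lymph nodes from male C57BL/6 mice, and the study asked how Kdm6a bears on the genes of these cells. All 9 samples were floxed/y for Kdm6a, an X-linked gene whose protein removes methyl groups from lysine 27 of histone H3. The 5 WT samples (1, 3, 4, 5 and 9) were CD4-Cre (-/-) and the 4 cKO samples (2, 6, 7 and 8) were CD4-Cre (+/-), so Cre and the loss of Kdm6a cannot be told apart. CD4-Cre acts in cells that use, or whose precursors used, the Cd4 promoter. Ages are not given in the sources consulted, and the labels state no treatment, although the name of the deposited table holds the word stim. The labels do not say whether separate mice gave the samples, and the p-values therefore measure only the spread between these libraries, which may be technical.

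Total counts ran from 20587482 in cKO 7 to 26387488 in WT 9. At that depth a gene with 0 counts in a library may still hold up to 3 counts, or 0.114 to 0.146 CPM (counts per 1000000 counts of the library), a limit that covers counting error only. Kdm6a averaged 62.7 CPM in WT against 42.7 in cKO, with no overlap between the genotypes (log2 difference -0.55, SE 0.04, edgeR adjusted p = 2.9e-05). Its count covers the whole gene, so exons outside the deleted part remain in it. The 8 T cell markers moved both ways. Cd4 (873 CPM in WT, 957 in cKO) and Cd5 rose, Cd3d, Cd3g, Trbc1 and Trbc2 fell, with log2 differences from -0.42 (Trbc1) to 0.23 (Cd5), and Cd3e (248 and 238 CPM) and Trac (214 and 200.4 CPM) were not called in edgeR. The Cd4 call did not survive with no count filter, nor the removal of any sample but WT 9 and cKO 2. Of the markers of other cells, Ighm was at 301 CPM in WT and at 268 in cKO (not called), while Cd79b fell from 1.72 to 0.911 CPM (edgeR adjusted p = 0.0104) and the other 5 B cell genes were at or below 1.02 CPM. Cd8b1 rose from 11.6 to 14.1 CPM (adjusted p = 0.0296) and Cd8a was at 1.80 and 2.70 CPM. Itgam fell from 1.34 to 0.373 CPM (adjusted p = 0.00297), while Csf1r (14.3 and 15.5 CPM) and Cd68 (2.76 and 3.39 CPM) were not called. The other lists summed to at most 3.75 CPM in any sample, led by Zbtb46 at 2.65 and Xcr1 at 0.273 CPM (dendritic), Alas2 at 0.581 (erythroid), Sycp3 at 0.403 and Dazl at 0.296 (germ cell) and Klrb1c at 0.2 and Ncr1 at 0.0427 (NK). S100a8, S100a9 and the other 2 neutrophil genes were at 0. The part of these markers in the results was not tested.

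Most histone protein is made in S phase from the clustered genes, which are called replication-dependent. Their mRNAs are the known exception among those of animal cells, since they end in a short stem-loop in place of a poly(A) tail. The stem-loop is bound by SLBP, and the U7 snRNP, which holds Lsm10 and Lsm11, directs the cut behind it. The solitary genes are used throughout the cell cycle and their mRNAs carry a poly(A) tail: H3f3a and H3f3b both encode the replacement histone H3.3, H1f0 encodes H1.0 and H1fx encodes H1x. Per the labels, these libraries were made after mRNA enrichment, in a way the labels do not specify.

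The annotated transcripts were searched for the stem-loop and for the poly(A) signal. The following are shown because genes with a stem-loop and genes with a poly(A) signal are compared below. Each is written 5′ to 3′ from the GENCODE M21 transcripts (mm10) with the 16-base stem-loop or the poly(A) signal AATAAA in capitals.
Hist1h4i, stem-loop: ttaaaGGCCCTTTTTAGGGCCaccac
Hist1h2bj, stem-loop: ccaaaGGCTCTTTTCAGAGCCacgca
Hist1h3c, stem-loop: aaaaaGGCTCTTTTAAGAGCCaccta
Hist1h2ag, stem-loop: acaaaGGCTCTTTTCAGAGCCaccta
Hist1h1c, stem-loop: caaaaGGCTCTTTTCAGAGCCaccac
Hist1h1c, poly(A) signal: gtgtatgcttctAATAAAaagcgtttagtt
Hist3h2a, stem-loop: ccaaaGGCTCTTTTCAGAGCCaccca
Hist3h2a, poly(A) signal: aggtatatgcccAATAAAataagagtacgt
Hist2h2be, poly(A) signal: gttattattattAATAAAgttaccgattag
H1f0, poly(A) signal: ttaaaactttaaAATAAAactggaaaggaa
H1fx, poly(A) signal: ttcctggggcgcAATAAAcggttccaacct
H3f3a, poly(A) signal: aatttgaaaaatAATAAAagtaccaataga
The stem-loop was searched on the transcript strand as GGCNCTTNTNAGNGCC, where N is any base. Of 55450 annotated genes, 57 held it, or 0.103%, and 39 of those were among the 72 rows named as histones. The poly(A) signal was searched in the last 40 bases of each transcript, and H3f3b held none there. The stem-loop was searched along the whole transcript, so it need not mark the annotated end. It lay 23 bases before that end in Hist1h2bj, 330 in Hist1h4i, 840 in Hist1h1c and 4884 in Hist1h1d.

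Among the 45 clustered genes the stem-loops came in 6 sequences, and their stems followed the histone class. All 9 H4 genes with a stem-loop had a stem that opens GGCCC, and all 22 genes of H1, H2A, H2B and H3 with one had a stem that opens GGCTC. The sequence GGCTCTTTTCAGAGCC was shared by 17 genes of H1, H2A, H2B and H3. Altogether 22 clustered genes had the stem-loop alone, 9 had a stem-loop and a poly(A) signal, 2 (Hist1h4j and Hist2h2be) had a poly(A) signal alone, and 12 had neither. In 11 of those 12 the annotated exons run only 3 to 102 bases beyond the coding sequence, so that the annotation holds little of a 3′ end to search.

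By level per kilobase, H3f3b and H1f0 stood above every clustered gene in every sample, while H3f3a and H1fx lay among the higher clustered genes. Levels of different genes are compared per kilobase of exonic length, because longer genes collect more reads. H3f3b was at 87.5 CPM per kilobase and H1f0 at 40.1, followed by the clustered genes Hist1h2bj at 12.6, Hist1h4i at 8.36, Hist1h2bk at 6.79, Hist1h3c at 5.39, Hist1h4b at 5.05 and Hist1h2ak at 5.02. H3f3a came 11th of the 50, at 4.03 CPM per kilobase, and H1fx 14th, at 3.01. This order rests on the annotated lengths. By CPM without length H3f3a came 3rd, at 14.1 CPM, above the highest clustered gene (Hist1h4i, 6.08 CPM). The 45 clustered genes had a median of 1.14 CPM per kilobase and a lowest value of 0.0767 (Hist2h3c1). Together they summed to between 81.9 and 101 CPM per kilobase in a sample, close to H3f3b alone. For comparison, 26 genes of S phase and DNA replication in the same samples ran from 15.8 to 180 CPM per kilobase, so that the lowest of them exceeded the highest clustered histone gene. How the mRNA enrichment bears on this gap was not tested.

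Summed over 45 genes, the clustered histones took 1382 to 1896 counts per sample. The sums were 67.3, 66.9, 66.4, 72.7 and 72.4 CPM in WT samples 1, 3, 4, 5 and 9, and 68.7, 72.7, 68.05 and 61.8 CPM in cKO samples 2, 6, 7 and 8. The highest values thus came from both genotypes, the lowest from cKO 8, and the groups overlapped. The means were 69.1 CPM ± 3.14 (SD, n = 5) in WT against 67.8 CPM ± 4.50 (SD, n = 4) in cKO, or 0.00686% and 0.00684% of all counts. The 4 solitary genes summed to 359 CPM ± 11.6 (SD, n = 5) in WT against 362 CPM ± 11.6 (SD, n = 4) in cKO. In bulk samples such a sum cannot tell the number of cells in S phase from the histone RNA per such cell.

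**Figure D1:**
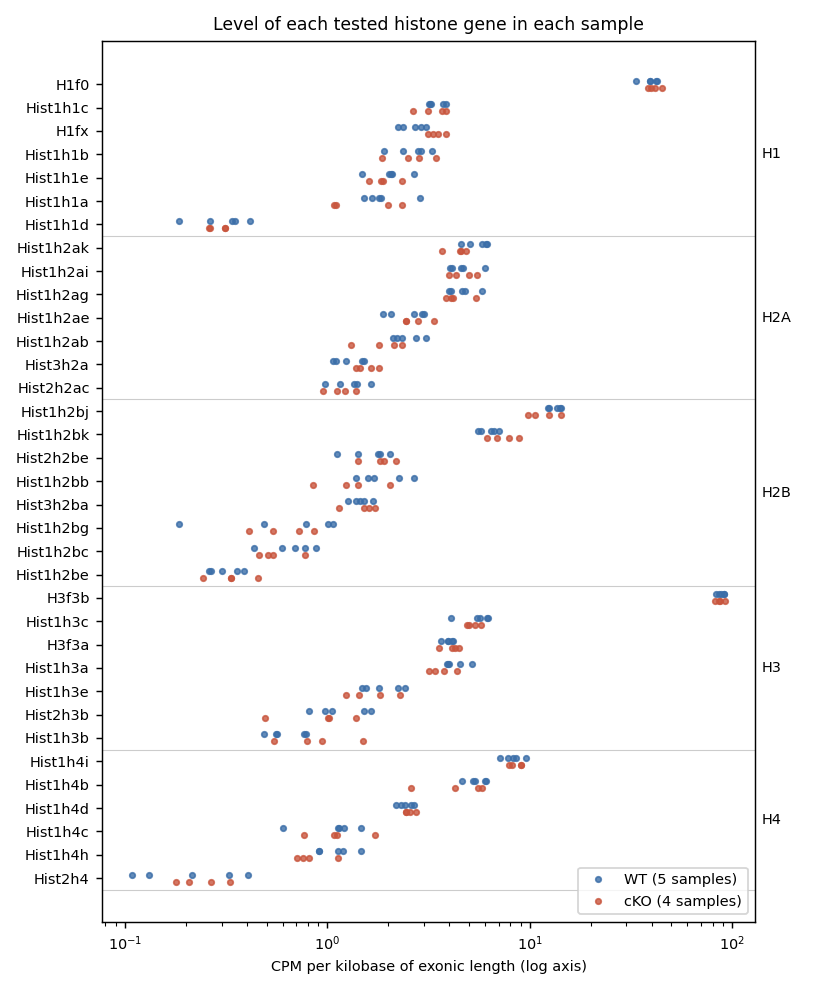
Level of each of the 35 tested histone protein genes in each sample, in CPM per kilobase of exonic length on a log axis, grouped by class; blue points are the 5 WT samples and red points the 4 cKO samples. H3f3b and H1f0 lie to the right of all others, and the points of both genotypes are mixed in all rows but H1fx.

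Of the 50 genes, 36 had enough counts to be tested between genotypes and 14 had not, and 0 of the 36 passed an adjusted p of 0.05 in edgeR, against 15.8% of the 14693 genes tested. At an unadjusted p under 0.05 there were 2, H1fx higher and Hist1h2ak lower in cKO, against 31.1% of all genes tested. DESeq2 and limma-voom also called 0, with 1 and 3 genes at an unadjusted p under 0.05. The groups did not overlap in 1 of the 36 genes, H1fx, or 2.78%, against 15.9% of all genes tested. The 14 genes not tested, 6 of H2A, 2 of H2B, 1 of H3 and 5 of H4, had totals from 11 to 80 counts, and the lowest tested total was 82.

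Low counts widen the errors of the clustered genes, and the percentages above include genes with far more counts. The median standard error of the log2 difference was 0.20 for the 31 tested clustered genes and 0.07 for all genes tested. Among the 4302 genes tested in the same range of mean CPM, the median standard error was also 0.20 and 488 genes, or 11.3%, were called. The 95% interval of the fold lay within 2-fold either way for 33 of the 36 histone genes and within 1.5-fold for 19. Changes smaller than the intervals were not detectable at this depth.

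The median log2 difference of the 36 genes was -0.06, with 15 above 0 and 21 below, beside 0.001 over all genes tested. By class it was -0.10 for the 5 clustered H1 genes, -0.09 for 7 of H2A, -0.06 for 8 of H2B, -0.15 for 5 of H3 and 0.04 for 6 of H4. The widest rise and the widest fall in value, named after their values were seen, were 0.60 for Hist1h3b (SE 0.31, edgeR adjusted p = 0.206) and -0.47 for Hist1h2bb (SE 0.28, adjusted p = 0.275). Hist1h3b had 100 counts in all and Hist1h2bb had 183.

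**Figure D2:**
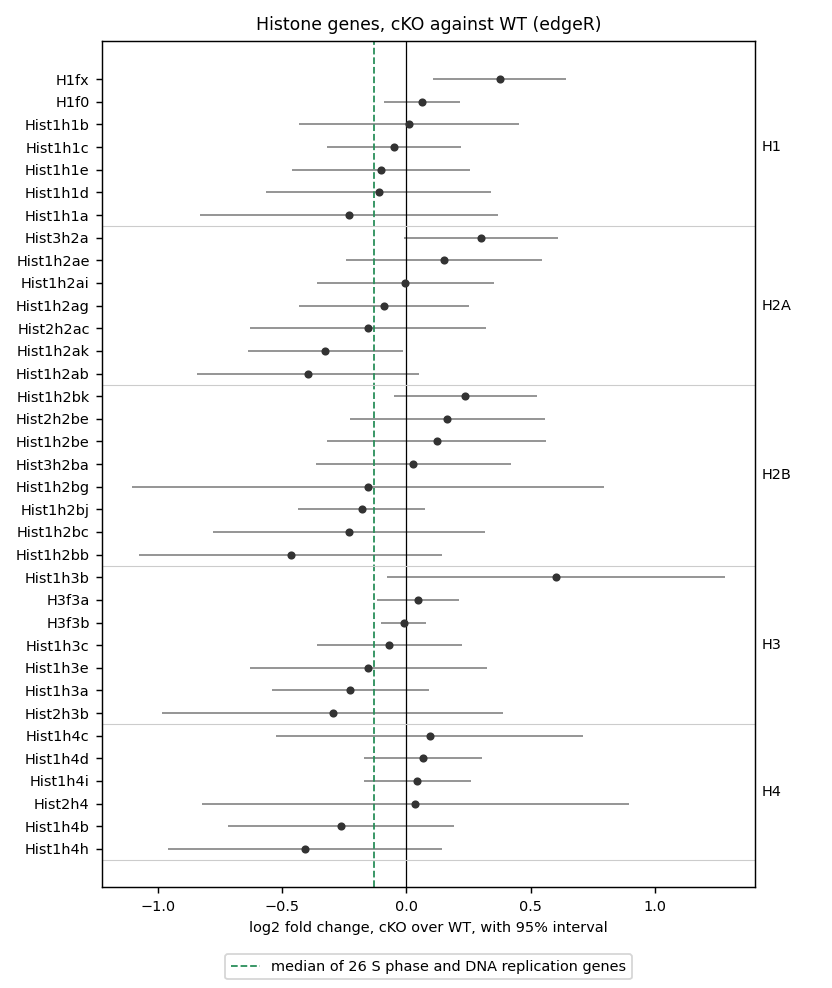
Log2 difference of cKO over WT for the 35 tested histone protein genes, with the 95% interval of each edgeR estimate; the dashed line is the median of 26 S phase and DNA replication genes, -0.13. The intervals of H1fx and Hist1h2ak leave out 0, and those of Hist1h3b and Hist1h2bg are among the widest.

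H1fx, a linker histone on the minus strand of chromosome 6 (87980421 to 87981637, mm10), came nearest to a call. It was at 2.71, 3.31, 3.53, 2.88 and 3.74 CPM in WT 1, 3, 4, 5 and 9, and at 4.26, 3.81, 4.03 and 4.70 CPM in cKO 2, 6, 7 and 8. Every cKO sample lay above every WT sample, with WT 9 and cKO 6 the nearest pair. The means were 3.23 CPM ± 0.432 (SD, n = 5) and 4.20 CPM ± 0.378 (SD, n = 4), a 1.30-fold difference (log2 0.37, SE 0.12, 95% interval 0.11 to 0.64, edgeR adjusted p = 0.058). Without WT 9 the log2 difference was 0.44 (adjusted p = 0.0484), and with library totals in place of normalization factors it was 0.40 (adjusted p = 0.0481). Over all 17 other settings the adjusted p ran from 0.0481 to 0.151. Exons of Gm47286 overlap H1fx on the same strand and have no row of their own here. Exons of Gm5577 overlap it on the opposite strand, and the strand setting of the counting is not given in the sources used here. Gm5577 averaged 6.13 CPM in WT against 6.23 in cKO (log2 0.02, edgeR adjusted p = 0.91).

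H1f0, the linker histone H1.0, is known to accumulate in cells that leave the cell cycle. In these libraries it made up 75.3% of the H1 level per kilobase, or 81.75% of the H1 CPM without length. How the mRNA enrichment bears on this share was not tested, so it need not be the share of H1.0 in the cells. The values of H1f0 were 68.8, 86.2, 80.8, 80.9 and 87.4 CPM in WT and 85.6, 81.1, 79.05 and 92.3 CPM in cKO. WT 1 was the lowest and cKO 8 the highest, and the other 7 samples of both genotypes overlapped. The log2 difference was 0.06 (SE 0.07, 95% interval -0.09 to 0.22, edgeR adjusted p = 0.571), and without WT 1 the groups still overlapped.

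The clustered H1 genes, which encode somatic linker histone subtypes, were all tested and none was called. Hist1h1c was at 5.0, 4.94, 5.07, 5.81 and 6.03 CPM in WT and at 4.89, 6.00, 5.71 and 4.11 CPM in cKO, which gave a log2 difference of -0.05 (SE 0.12, edgeR adjusted p = 0.815). Hist1h1e was at 3.98 CPM ± 0.809 (SD, n = 5) in WT against 3.69 CPM ± 0.60 (SD, n = 4) in cKO. The signs of both rested on single samples, with 0.04 for Hist1h1c without cKO 8 and 0.002 for Hist1h1e without WT 5. Exons of Hist1h2be, whose annotated transcript is long, overlap Hist1h1e on the same strand, so their reads could be shared. Hist1h1b, Hist1h1d and Hist1h1a had log2 differences of 0.01, -0.11 and -0.23.

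Among the H2A genes, which form dimers with H2B in the nucleosome, the levels per kilobase of Hist1h2ak, Hist1h2ai and Hist1h2ag were near each other, at 20.7%, 19.3% and 18.7% of the class. These shares depend on the annotated length, which is 393 bases for Hist1h2ak and Hist1h2ai and 2146 for Hist3h2a. By CPM without length, Hist3h2a led the class with 21.9%, against 5.84% per kilobase. Hist1h2ak was at 2.29, 2.41, 2.38, 1.79 and 1.98 CPM in WT and at 1.90, 1.78, 1.44 and 1.79 CPM in cKO. Its lowest WT sample fell within the range of the cKO samples, and the log2 difference was -0.33 (SE 0.14, 95% interval -0.64 to -0.01, edgeR adjusted p = 0.141). Hist3h2a, the H2A gene of the Hist3 cluster, whose exons overlap those of Trim17 on the same strand, was at 2.75 CPM ± 0.448 (SD, n = 5) and 3.37 CPM ± 0.394 (SD, n = 4), a log2 difference of 0.30 (SE 0.14, adjusted p = 0.174). Trim17 was at 2.74 and 3.08 CPM. Hist1h2ag averaged 2.26 CPM in WT against 2.12 in cKO.

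Of the 10 H2B genes examined, Hist1h2bj (chromosome 13, 22043214 to 22043676, plus strand, mm10) held 47.3% of the class level per kilobase and Hist1h2bk 25.5%. Annotated H2B genes without a row, such as Hist1h2bm, are left out of these shares. Hist1h2bj was at 6.32, 6.57, 5.78, 5.67 and 6.53 CPM in WT and at 4.89, 6.63, 5.76 and 4.52 CPM in cKO. Samples cKO 2 and cKO 8 lay below all WT samples while cKO 6 was the highest of all 9, and the log2 difference was -0.18 (SE 0.12, edgeR adjusted p = 0.319). Hist1h2bk was at 3.06, 3.35, 2.65, 2.74 and 3.17 CPM in WT and at 4.22, 3.27, 3.75 and 2.91 CPM in cKO, which gave a log2 difference of 0.24 (SE 0.13, adjusted p = 0.244). The share of Hist1h2bk in the class was 23.2% in WT and 28.4% in cKO, and that of Hist1h2bj 49.3% and 44.9%. No test was made of these shares. Hist2h2be, whose annotated end carries a poly(A) signal and no stem-loop, varied most beyond counting noise of the clustered genes, from 2.91 CPM in WT 1 to 5.71 CPM in cKO 7 (log2 difference 0.16, SE 0.18, adjusted p = 0.572).

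H3f3b lies on the minus strand of chromosome 11 (116021912 to 116027962, mm10) and made up 83.6% of the H3 level per kilobase. This share leaves out annotated H3 genes without a row, such as Hist1h3d and Hist1h3f. How the mRNA enrichment bears on it was not tested, so it need not be the share of H3.3 in the cells. H3f3b was at 270, 272, 247, 256 and 260.4 CPM in WT and at 275, 260.0, 257 and 245 CPM in cKO. The highest and the lowest sample were both cKO, cKO 2 and cKO 8. The log2 difference was -0.01 (SE 0.04, edgeR adjusted p = 0.894), and its 95% interval of -0.10 to 0.08 was the narrowest here. The sign turned positive, at up to 0.02, in 5 other settings. H3f3a, which encodes the same protein, was at 13.9 CPM ± 0.733 (SD, n = 5) and 14.4 CPM ± 1.37 (SD, n = 4), with a 95% interval of -0.12 to 0.21.

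H3f3aos, read from the opposite strand of H3f3a, was at 1.04 CPM ± 0.225 (SD, n = 5) in WT against 0.825 CPM ± 0.048 (SD, n = 4) in cKO (log2 -0.34, SE 0.20, edgeR adjusted p = 0.264). Exons of Gm17275 also overlap H3f3a on the opposite strand, and Gm17275 averaged 14.0 CPM in WT against 14.5 in cKO. Reads of H3f3a can be told apart from those of H3f3aos and Gm17275 only if the counting used the strand. That setting is not given in the sources used here. Of the 6 clustered H3 genes examined, Hist1h3c held 41.03% and Hist1h3a 30.6% of the clustered level per kilobase, again without the annotated genes that have no row. Hist1h3c was at 3.47 CPM ± 0.546 (SD, n = 5) and 3.31 CPM ± 0.245 (SD, n = 4), a log2 difference of -0.07 (SE 0.13, adjusted p = 0.763).

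The H4 genes, most of which encode one and the same protein, were led by Hist1h4i (chromosome 13, 22040636 to 22041362, minus strand, mm10) with 42.5% of the class level per kilobase, Hist1h4b with 25.4% and Hist1h4d with 12.6%. By CPM without length, Hist1h4d held 20.8% and Hist1h4b, annotated with only 397 bases, 14.65%. Hist1h4i was at 6.20, 5.97, 5.69, 5.15 and 6.95 CPM in WT and at 6.54, 6.54, 5.71 and 5.95 CPM in cKO. The cKO values lay inside the WT range, with a log2 difference of 0.04 (SE 0.10, 95% interval -0.17 to 0.26, edgeR adjusted p = 0.802), and without WT 5 it was -0.004. Hist1h4b was at 2.13, 2.41, 2.38, 2.08 and 1.83 CPM in WT and at 1.69, 2.2, 2.31 and 1.03 CPM in cKO, where cKO 8 was the lowest sample (log2 difference -0.26, SE 0.21, adjusted p = 0.425). Hist1h4d varied least of the H4 genes, at 2.77 CPM ± 0.232 (SD, n = 5) and 2.89 CPM ± 0.155 (SD, n = 4).

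Summed by class, the clustered genes overlapped between genotypes in all 5 classes. The sums were 15.05 CPM ± 2.02 (SD, n = 5) in WT against 14.2 CPM ± 1.96 (SD, n = 4) in cKO for H1, and 13.8 ± 0.88 and 13.8 ± 0.569 for H2A. For H2B they were 18.2 ± 0.914 and 18.2 ± 1.36 CPM, for H3 8.43 ± 0.892 and 7.91 ± 0.856 CPM, and for H4 13.6 ± 0.549 and 13.7 ± 1.21 CPM. The largest of these differences in means, that of H1, was smaller than the standard deviation of either group.

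**Figure D3:**
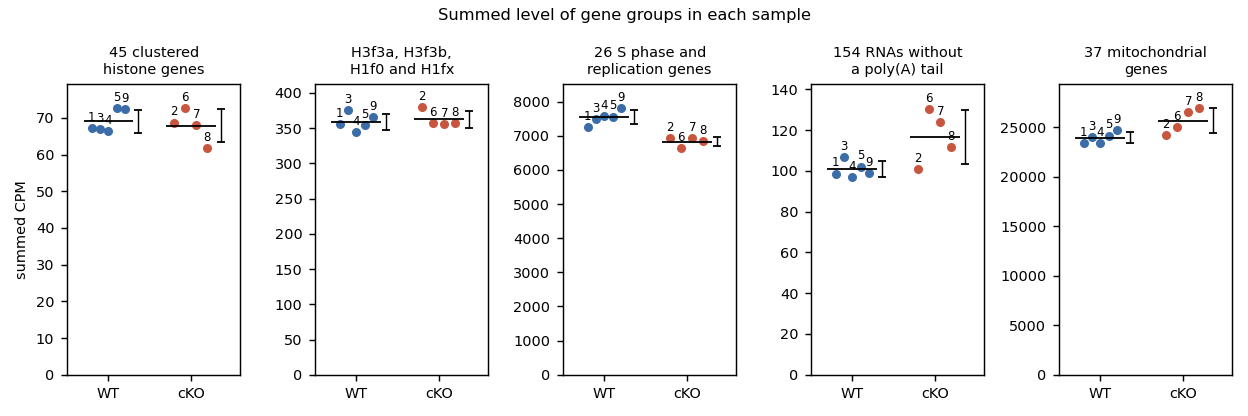
Summed CPM per sample for 5 gene groups, with the sample number beside each point; horizontal lines are means and the bars beside them 1 SD (5 WT, 4 cKO samples), and each axis starts at 0. The clustered histone genes overlap between genotypes (61.8 to 72.7 CPM), while the S phase sums of cKO (6630 to 6931 CPM) lie below those of WT (7244 to 7815 CPM).

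Related histone genes hold nearly the same letters, which limits what a read count can assign. For each of the 61 clustered genes with a row, the share of its 50-base stretches found in no other annotated gene on either strand was computed. A gene annotated on the opposite strand of the same place therefore lowers the share as well, without any related histone gene. All H2A genes have exons that overlap such a gene. How much of a low share came from the opposite strand was not computed. The 8 genes at 0 counts had a median of 6.71% unique stretches, the 8 with 1 to 9 counts 30.5%, the 17 with 10 to 99 counts 35.2% and the 28 with at least 100 counts 58.4%. Across these genes, which are not independent, Spearman's rho of the unique share and the total count was 0.44 (n = 61). The counts were not divided by annotated length here, and the part of length in this relation was not tested. How the authors' counting treated reads that fit several genes is not given in the sources used here, so a low count of a gene with few unique stretches need not mean a low level. There were exceptions, since Hist2h3b had no unique stretch and 115 counts, Hist1h2ai had 9.88% and 389 counts, and Hist1h2bk had 25.8% and 680 counts. The values of these genes, and those of Hist1h2ag (21.1%) and Hist1h4b (24.1%), are uncertain for this reason or because of genes on the opposite strand.

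**Figure D4:**
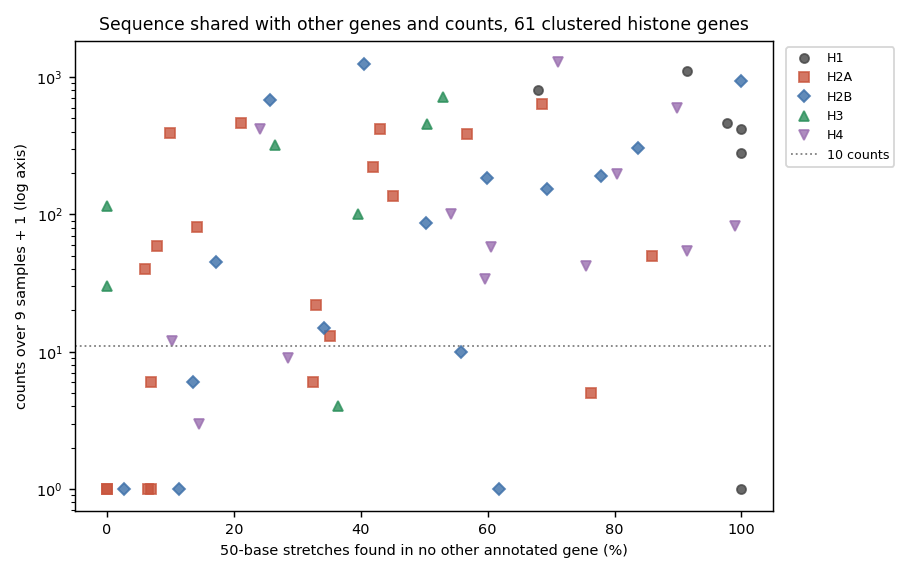
Total counts over 9 samples plus 1 (log axis) against the percentage of 50-base stretches found in no other annotated gene on either strand, for 61 clustered histone genes by class; the dotted line marks 10 counts. Of the 8 genes at 0 counts, 6 lie below 20% unique stretches.

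The clustered genes also share promoter features. Promoters of 300 bases (250 before and 50 after the start) came from RefSeq (GRCm38.p6) and matched 45 of 49 protein genes, 41 of them clustered with 42 promoters. On either strand, CCAAT (or ATTGG) occurred in 35 of the 42, or 83.3%, against 37.4% of all 32851 promoters, and TATAAA (or TTTATA) in 25, or 59.5%, against 13.6%. The 42 are not all separate stretches of DNA, so the same match can count more than once. For example, the windows of Hist1h2ag (22042900 to 22043199) and Hist1h2bj (22042948 to 22043247) overlap, and Hist1h2be has 2 windows. All 7 clustered promoters without CCAAT belonged to H4 genes, Hist1h4i and Hist1h4b among them, so that 3 of 10 H4 promoters and all 32 of H1, H2A, H2B and H3 held it. Among the 4 solitary genes, 2 promoters held CCAAT and 1 held TATAAA. Such matches describe letters and are not measured binding sites.

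Among the clustered genes with a row, 12 pairs stand head to head with starts less than 1000 bases apart, and all 12 join an H2A with an H2B gene. Within a pair the counts could differ widely, although several of these genes have few unique stretches, so a gap in counts need not be one in level. Hist1h2ag and Hist1h2bj, 269 bases apart, had 465 and 1235 counts, Hist1h2ah and Hist1h2bk had 58 and 680, Hist1h2ai and Hist1h2bl 389 and 44, and Hist1h2ak and Hist1h2bn 417 and 5. The stretch between the first pair is shown because both genes start from it and Hist1h2bj had the highest level per kilobase of the clustered genes. It is the Hist1h2bj promoter on the plus strand, chr13:22042948-22043247, with CCAAT and ATTGG in capitals, 5 in all.
Hist1h2bj promoter: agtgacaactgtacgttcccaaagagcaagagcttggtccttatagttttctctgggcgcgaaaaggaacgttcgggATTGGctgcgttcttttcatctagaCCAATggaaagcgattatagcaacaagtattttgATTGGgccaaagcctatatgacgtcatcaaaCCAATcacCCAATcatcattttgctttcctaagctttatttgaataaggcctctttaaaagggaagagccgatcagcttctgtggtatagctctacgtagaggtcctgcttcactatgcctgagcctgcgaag
Neither Hist1h2ag nor Hist1h2bj held TATAAA in its window, and both had CPM values that overlapped between genotypes.

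By the elements found, the 22 clustered genes with a stem-loop alone had a median level of 1.46 CPM per kilobase, the 9 with a stem-loop and a poly(A) signal 0.327, the 2 with a poly(A) signal alone 0.986 and the 12 with neither 1.03. These groups do not show how the mRNAs end, since a stem-loop could lie far inside the annotated transcript. The 9 genes with both also had more exonic bases outside the coding sequence, with a median of 1282 against 171.5 for a stem-loop alone. The lower per-kilobase level and the longer exons cannot be told apart here. The highest level of a clustered gene with a poly(A) signal was 3.39 CPM per kilobase (Hist1h1c), between those of H3f3a and H1fx and below those of H3f3b and H1f0.

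Genes that act on histone supply were set beside these values. Of 26 genes of S phase and DNA replication, 13 fell in cKO by edgeR, 0 rose and 13 were not called (0 higher at an unadjusted p below 0.05, 0 by DESeq2 and 0 by limma-voom), against 8.82% of all genes tested that fell. All 26 had a log2 difference below 0, with a median of -0.13. Cdt1, which licenses replication origins, was at -0.26 (SE 0.05, edgeR adjusted p = 0.00431), and the helicase gene Gins2 at -0.20. The number that fell was 7 without cKO 6 and 8 without cKO 8. The intervals of 29 of the 36 histone genes included -0.13 and those of 34 included 0. At this depth most histone genes could therefore not be told apart from either value. The intervals of the 4 solitary genes lay above -0.13, with lower bounds of -0.117 (H3f3a), -0.101 (H3f3b), -0.089 (H1f0) and 0.109 (H1fx).

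Of 21 genes of histone mRNA transcription and processing, 3 fell (against 8.82% of all genes tested) and 0 rose (against 7%) in edgeR (1 higher at an unadjusted p below 0.05, 0 by DESeq2 and 0 by limma-voom), with a median of -0.03. Eri1, an exonuclease that binds the histone stem-loop, fell from 214 to 184 CPM (log2 change of -0.22, SE 0.05, adjusted p = 0.0176). Ccne1, the cyclin whose kinase activates histone gene transcription through Npat, fell from 86.1 to 73.1 CPM (log2 change of -0.24, SE 0.04, adjusted p = 0.00211). Lsm11 of the U7 snRNP fell by 0.14 on the log2 scale (adjusted p = 0.0314), a call that was lost in 10 other settings, 7 of which left out 1 sample (WT 3, 4 or 9 or any cKO sample). Slbp, the stem-loop binding protein, averaged 186 CPM in WT against 171 in cKO (adjusted p = 0.113), and Npat at 102 and 109 CPM (adjusted p = 0.0982).

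Histone chaperones carry histones to and from DNA, and the list of chaperones used here also held factors that work with them, such as Hat1 and Ipo4. Of its 24 genes, 2 rose (against 7% of all genes tested), 2 fell (against 8.82%) and 20 did not pass, with a median of -0.005. Asf1a rose from 62.7 to 71.7 CPM (log2 change of 0.19, SE 0.05, edgeR adjusted p = 0.0179). Ubn2, a subunit of the HIRA complex that deposits H3.3, rose from 103 to 117 CPM, while Ubn1, its paralog in that complex, fell from 228 to 203 CPM (adjusted p = 0.0255 and 0.0411). Rbbp4, a subunit of the CAF-1 chaperone and of other complexes, fell by 0.12 on the log2 scale (adjusted p = 0.0295). With upper-quartile scaling or library totals 4 chaperones rose and 0 fell, and the calls of Ubn1 and Rbbp4 were lost. With 1 sample left out, from 0 to 4 rose and from 0 to 5 fell. The extremes were 0 that rose without cKO 6, 4 that rose and 5 that fell without WT 1, and 0 that fell without WT 3, WT 4, WT 9, cKO 6 or cKO 8.

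Of 7 histone variants whose symbols lie outside the rule, 1 rose and 1 fell, against 7% and 8.82% of all genes tested, and both encode macroH2A, an H2A variant with a large extra domain. H2afy2 (macroH2A2) was at 0.426, 0.215, 0.309, 0.425 and 0.267 CPM in WT and at 0.886, 0.828, 0.72 and 0.984 CPM in cKO, so that all cKO samples lay above all WT samples at a low level. It rose by 1.37 on the log2 scale (SE 0.24, edgeR adjusted p = 0.00407), and a filter of 1 CPM in 4 samples left it out. H2afy (macroH2A1) fell from 518 to 454 CPM (log2 change of -0.19, SE 0.04, adjusted p = 0.0068), again with no overlap. The other 5 variants had log2 differences from -0.27 (H2afv, an H2A.Z gene) to -0.01 (H2afj), and without WT 1 the number that fell was 3.

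**Figure D5:**
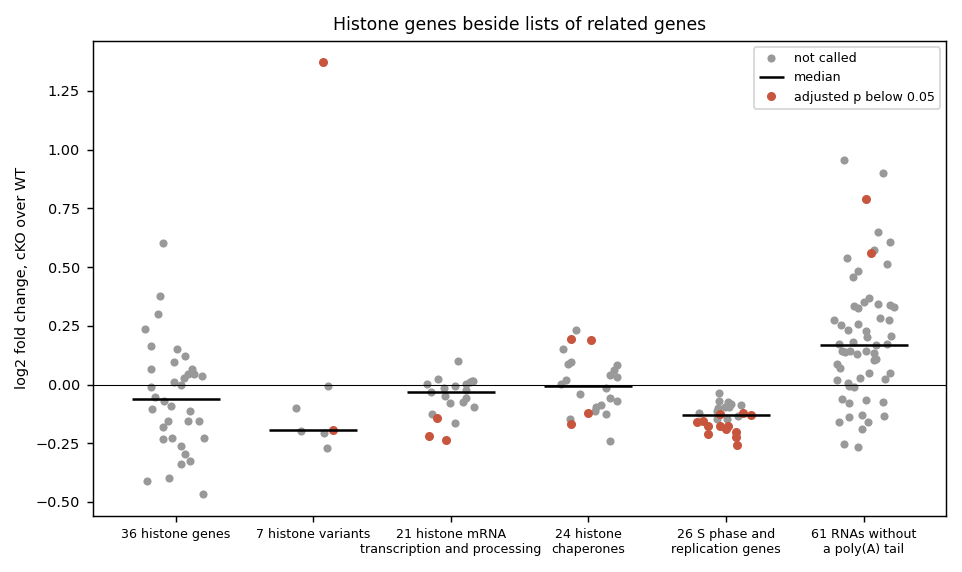
Log2 differences of cKO over WT for the 36 tested histone genes (H3f3aos included) and 5 lists of related genes; red points passed adjusted p 0.05 in edgeR and black lines are medians. The histone genes hold 0 red points and spread from -0.47 to 0.60, while all 26 S phase genes lie below 0.

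Beside these results, 2 measures of the RNA differed between genotypes. The share of mitochondrial counts was 2.38% ± 0.0573 (SD, n = 5) in WT against 2.59% ± 0.138 (SD, n = 4) in cKO (two-sided exact permutation p = 0.0318), where cKO 2, at 2.42%, lay within the WT range. RNAs known to lack a poly(A) tail (small nucleolar and Cajal body RNAs, Rpph1, Rmrp, Rn7sk and others, 154 rows) took 0.0100% ± 0.000417 (SD, n = 5) of counts in WT and 0.0118% ± 0.00139 (SD, n = 4) in cKO (exact permutation p = 0.0318), where cKO 2 again lay within the WT range. With 1 sample left out, the exact p of either share rose to as much as 0.0714. Of 61 such RNAs tested, 2 rose (against 7% of all genes tested) and 0 fell (against 8.82%) in edgeR (0 lower at an unadjusted p below 0.05, 0 by DESeq2 and 0 by limma-voom), with a median of 0.17. Rpph1, the RNA of RNase P, rose from 3.91 to 6.79 CPM (log2 change of 0.79, SE 0.21, adjusted p = 0.0291) and Snora61 from 1.69 to 2.49 CPM (adjusted p = 0.0295). Neither call held without WT 4, WT 5, cKO 6 or cKO 7. The untailed share was 0.00971%, 0.0107%, 0.00968%, 0.0101% and 0.00984% in WT 1, 3, 4, 5 and 9. In cKO 2, 6, 7 and 8 it was 0.0101%, 0.0132%, 0.01255% and 0.01125%. The clustered histone sums of the same samples are given above. No relation over all samples was computed. The part of either share in the histone values was not tested.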

How the data were processed

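The authors deposited 1 table of raw counts per gene, not normalized, with 1 column for each of 9 samples and 0 columns of no sample. Per the labels, RNA went through mRNA enrichment and a stranded KAPA kit; the submitters' processing notes name bcl2fastq 2.17 and mm10. Aligner, counter, strand setting and annotation: not given in the sources used here. Symbols were found for 37607 of 39017 IDs, and positions, lengths and transcript ends came from GENCODE M21 (mm10), which may differ from the authors' annotation. All 14693 genes kept by filterByExpr were fitted in edgeR 4.0.16 (R 4.3.3; quasi-likelihood F test, TMM, two-sided, Benjamini-Hochberg, adjusted p below 0.05). CPM uses TMM-adjusted totals. DESeq2 1.42.0, limma-voom 3.58.1, other scalings, other filters and leaving out each sample were alternatives, 17 in all. The fit was tested on simulated data: of 50 genes changed at each fold among 14693, edgeR found 20% (fold 1.2), 72% (fold 1.5), 90% (fold 2) and 94% (fold 4), and 5 of its 143 calls were false. The changed genes were drawn from all genes tested, whose median standard error was 0.07. These rates need not hold for the clustered histone genes, where it was 0.20. Shares of counts and permutation tests used SciPy 1.17.1. The histone genes and the lists were chosen with earlier results of these data known. Named genes were Kdm6a, the 3 most abundant genes of each histone class by CPM, the solitary genes, those next to the count minimum, up to 4 called genes a list, by adjusted p, Cd4, Cd3e and Trac, and the 2 most abundant of each list of other-cell markers, of which 1 is not reported here. Other genes given with values, such as Slbp, Npat, Cd5, Itgam and Hist1h2ai, were chosen after the values were seen.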

Additional observations from a re-analysis of the deposited data

Results flagged for a closer look

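Of 94 groups of 4 or 5 samples that were checked, 2 held a sample that stood apart from the rest by Dixon's criterion, which chance alone meets in about 1 of 20 groups. The solitary histone genes summed to 379.7 CPM in cKO 2 and to between 355.5 and 357.3 CPM in the other cKO samples. The clustered H2A genes summed to 12.29 CPM in WT 1 and to between 13.96 and 14.4 CPM in the other WT samples. Their part in the comparisons was not tested beyond leaving out each sample.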

How the results depend on the processing

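No paired analysis was possible because no replicate number occurs in both genotypes. The count of histone genes called was 0 in 15 of 17 other settings and 1 (H1fx) with library totals and without WT 9. Over all genes, 1263 (without cKO 6) to 2933 (without WT 1) were called with 1 sample left out, with 1504 without cKO 8 and 1528 without WT 4. Of called genes 44.2% were higher in cKO, against 54.2% with upper-quartile scaling and 56.8% with library totals. The 5 lists together held 24 called genes, and 11 (without cKO 6) to 37 (without WT 1) with 1 sample left out. Variants that rose numbered 0 with the 1 CPM filter, and those that fell 2 with no count filter, 2 in DESeq2 and 1 to 3 without 1 sample. Processing genes that rose numbered 1 with library totals and 0 to 1 without 1 sample. Chaperones that rose numbered 4 and those that fell 0 with upper-quartile scaling and with library totals, and 0 to 4 and 0 to 5 without 1 sample. S phase genes that fell numbered 7 to 18, and untailed RNAs that rose 0 to 5, without 1 sample, and the latter 1 in limma-voom. The difference in mitochondrial share ran from 0.171 to 0.27 and that in untailed share from 0.0013 to 0.00233 percentage points without 1 sample, with exact p up to 0.0714, where 4 against 4 samples cannot go below 0.0286 and 5 against 3 below 0.0357. The log2 difference of H3f3b reversed to 0.0083 with upper-quartile scaling and 0.013 with library totals. With 1 sample left out the log2 differences ran from -0.0396 to 0.0159 for H3f3b (0.002 without WT 1, 0.00561 without WT 3 and 0.0159 without cKO 8), from -0.132 to 0.0442 for Hist1h1c (without cKO 8), from -0.216 to 0.00173 for Hist1h1e (without WT 5), from -0.21 to 0.00502 for Hist1h2ag (without WT 9) and from -0.00431 (without WT 5) to 0.104 for Hist1h4i. The causes were not tested. Depth limits the clustered genes, of which 14 of 45 were not tested and 10 of 31 tested were below 1 CPM.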
